A study of Mus musculus with 12 samples.

Results

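NF-kB proteins are transcription factors built as dimers of 5 subunits, and the genes described here are those subunits with the closest regulators of their release. Nfkb1 and Nfkb2 encode the precursors p105 and p100, which are cut to p50 and p52, and Rela, Rel and Relb encode the subunits that carry an activation domain. Nfkbia (IkB-alpha) and Nfkbie (IkB-epsilon) encode inhibitors that hold the dimers in the cytoplasm, and Bcl3 encodes an atypical family member that acts in the nucleus with p50 or p52 homodimers. Tnfaip3 encodes A20, a ubiquitin-editing enzyme that dampens the signal, and Map3k14 encodes NIK, the kinase that starts the processing of p100. The 10 genes were chosen by symbol. All 10 were found among the 55536 annotated genes of the gene count table, and 57 of its 141862 annotated transcripts belong to them. All 10 passed the filter on low counts and are among the 18817 genes tested.

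In resting T cells most NF-kB is held back by the inhibitors. The canonical route, fed by the T cell receptor through BCL10 and MALT1, ends in the destruction of IkB-alpha and frees RELA and REL dimers with p50. The non-canonical route, fed by receptors of the tumour necrosis factor family such as CD134 (OX40) and CD137 (4-1BB), ends in the stabilisation of NIK and the processing of p100 to p52, the partner of RELB. NFKBIA, NFKB2, RELB and TNFAIP3 are textbook targets of NF-kB itself, so mRNA levels of this family are read both as components and as outputs of the pathway.

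The cells were CD8+ T cells of the strain OT-1 Tg C57BL/6J, whose transgenic receptor recognises a peptide of ovalbumin. The OT-I donors of the study lacked Rag1 or Rag2, so that they make no other T cells and no B cells. Donor cells were transferred into C57BL6/J recipients, which were given the peptide with control rat IgG (Ag, 5 libraries) or the peptide with agonist antibodies to OX40 and 4-1BB (Ag+Costim, 5 libraries), and were sorted from spleen and lymph nodes 4 days later according to the labels (the study's text gives a slightly shorter interval). Naive cells (2 libraries) came from OT-I mice and were never transferred, so transfer, host and antigen all separate them from the other groups. Mice of both sexes were used in the study and ages are not given per library. The control antibody was carried by the Ag group, and the Naive group received neither antigen nor antibody. Each library was taken as 1 mouse, as the study describes its replicates.

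Libraries held 23976932 to 49258758 gene counts, the fewest in Ag replicate 4. A count of 3, below which a level is not told from 0, corresponds to 0.0617 to 0.119 CPM, the count scaled to a common library size, far under every member in every library. The 7 T cell markers were present in all 12 libraries, summing to 9407 to 13493 CPM in Ag libraries and 5451 to 7484 CPM in Ag+Costim libraries, and Cd4 did not exceed 2.44 CPM. The 7 B cell markers summed to 115 to 168 CPM in Ag libraries and 24.7 to 64.0 CPM in Ag+Costim libraries. In Naive libraries they summed to 27.3 to 30.1 CPM. Up to 3 of the 7 were at 0 in a Naive library and none in any other. These sums hide the single markers. Against Naive, all 7 were called higher in Ag (24.2% of all genes were). In Ag+Costim against Naive, 6 were called higher and 1 lower (26.9% and 25.4% of all genes), with a median log2 fold change of 4.44. The 4 MHC class II markers summed to 453 to 768 CPM in Ag libraries, 235 to 392 CPM in Ag+Costim libraries and 38.0 to 81.5 CPM in Naive libraries. The 6 erythroid markers summed to 6379 CPM in Ag replicate 4 and to between 626 and 2641 CPM in the other Ag libraries. They summed to 223 CPM at most in Ag+Costim and to 2069 and 149.6 CPM in Naive. All 6 were called lower in Ag+Costim than in Ag, where 26.5% of all genes were. The 8 mitochondrial transcripts summed to 17024 CPM in Ag replicate 4, between 5872 and 10086 CPM in the other Ag libraries, between 4551 and 6526 CPM with costimulation and between 7887 and 9508 CPM in Naive, and 4 of the 8 were called lower in Ag+Costim than in Ag. The 8 myeloid markers summed to 204 CPM in Ag replicate 4 and to between 40.1 and 163 CPM in the other 11 libraries. The 7 dendritic cell markers summed to 12.5 to 34.1 CPM in Ag libraries and 31.5 to 149 CPM in Ag+Costim libraries, nearly all of it Itgax, which activated T cells can also express. The sheet of the sequencing core lists an input amount of 0 for every Ag library, 10 for every Ag+Costim library and 8.5 and 10.7 for Naive, in a unit that is not stated. The 6 proliferation markers summed to 183 to 186 CPM in Naive libraries, 575 to 1083 CPM in Ag libraries and 2488 to 3318 CPM in Ag+Costim libraries. The part of these other cells, of cell division and of input in the differences between groups was not tested, and input and group cannot be told apart. In bulk RNA, fewer expressing cells and less RNA per cell cannot be told apart either.

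The promoters of most members carry the NF-kB consensus itself. The 10-base NF-kB consensus was searched on both strands in the RefSeq promoter windows of build GRCm38.p6, which run from 250 bases before to 50 bases after each start. It was present in 4.51% of 32851 promoters and in 5.14% of 27025 gene symbols. Of the 8 members with a promoter in the table, 6 held at least 1 match (Nfkb2, Rel, Nfkbia, Nfkbie, Bcl3 and Tnfaip3), and Rela and Map3k14 held none. Nfkb1 and Relb are not in the table. A match describes the letters in this window and was not measured as binding. The windows below, 5′ to 3′ on the gene's strand with the match in capitals, come from the 6 members with a match, whether or not their levels differed between groups. Further matches of Nfkb2 and Tnfaip3 are not shown. A match on both strands that starts 1 base apart is shown as 1 run.
Nfkb2, 39 bases before the start, chr19:46304689-46304717 (+): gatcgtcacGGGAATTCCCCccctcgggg
Nfkb2, 11 bases before the start, chr19:46304717-46304744 (+): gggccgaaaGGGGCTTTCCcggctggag
Nfkbia, 29 bases before the start, chr12:55492658-55492685 (-): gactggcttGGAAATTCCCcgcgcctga
Nfkbie, 106 bases before the start, chr17:45555585-45555612 (+): cagcaaacaGGGGGATTCCggaggggcg
Tnfaip3, 12 bases before the start, chr10:19015404-19015431 (-): atttccatcGGAAATCCCCctgttggca
Rel, 92 bases before the start, chr11:23771042-23771070 (-): gtaagcagcGGGAAATCCCCccccctccc
Bcl3, 3 bases into the transcript, chr7:19822735-19822762 (-): cggcggcagGGGAAGTCCCgctgcccgg
Distances are those of the first base of the match from the start. Nfkb2 held a match in each of its 3 promoters. Among the other pathway genes, the consensus was found for 6 of the 15 known target genes in the table, 3 of 7 ubiquitin enzymes, and 1 gene of each other list.

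Costimulation separated the members into a group that was higher, a group that was lower and a group that did not pass the test. In Ag+Costim against Ag, edgeR's quasi-likelihood test called 3 members higher (Nfkb2, Tnfaip3 and Map3k14) and 3 lower (Nfkbia, Nfkbie and Rela), at an adjusted p below 0.05 over all genes. Nfkb1, Rel, Relb and Bcl3 were not called. The 6 of 10 members called stand against 53.1% of all genes called in this comparison, so the number itself is near the background. By direction, 26.6% of all genes were called higher and 26.5% lower. Under upper-quartile scaling the median over all tested genes moved from -0.05 to -0.24 (log2) and the calls over all genes from 5006 higher and 4979 lower to 4056 higher and 6338 lower. The 6 members kept their directions and calls under that scaling, and Rel was called lower as well.

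**Figure D1:**
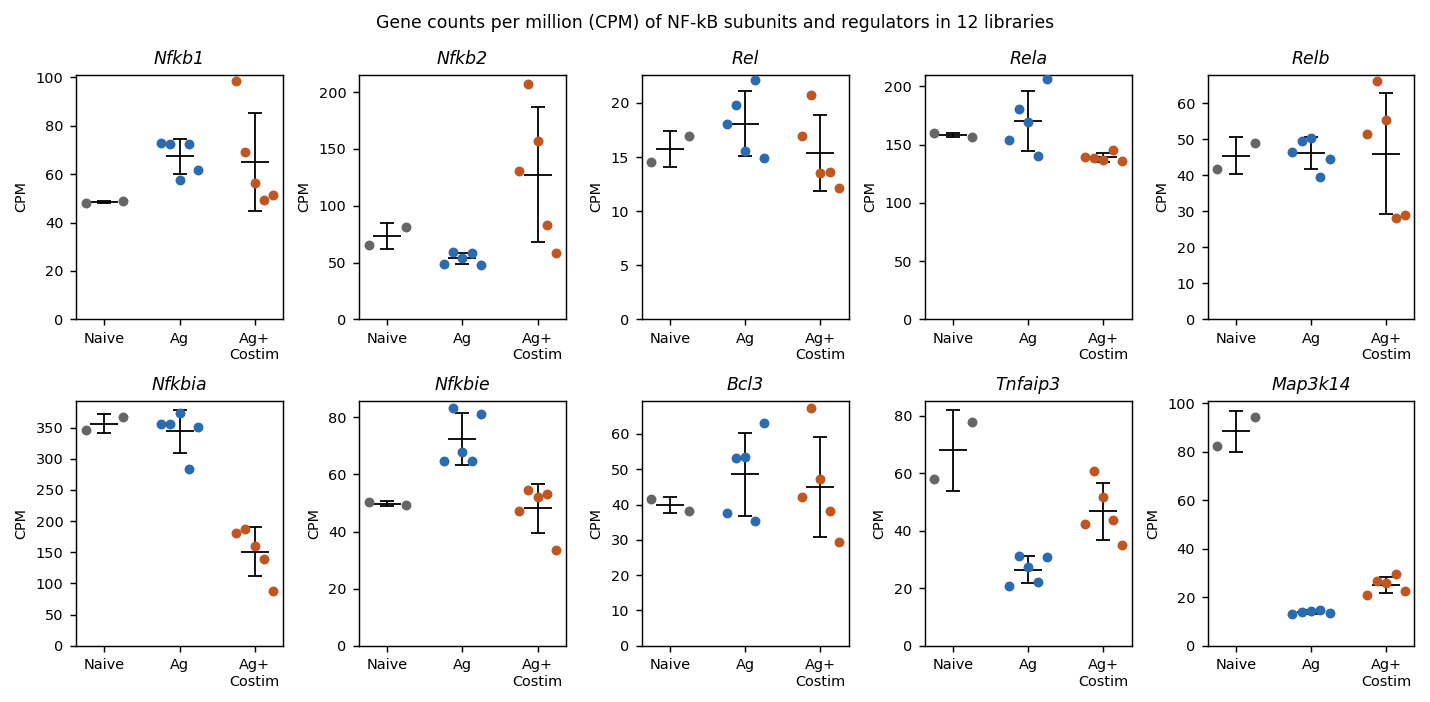
Each panel plots 1 gene, with CPM (TMM scaling) on the vertical axis from 0, 1 point per library in Naive, Ag and Ag+Costim, and a bar at the mean with error bars of 1 SD. Map3k14, Nfkbia, Nfkbie and Tnfaip3 show no overlap between the Ag and the Ag+Costim points, and the Nfkb2 and Relb points of Ag+Costim are spread far more widely than those of Ag.

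Among the subunits, Nfkb2 had the widest range of levels. It stood at 48.8, 59.0, 53.8, 58.3 and 48.1 CPM in the 5 Ag libraries and at 65.1 and 81.7 CPM in Naive. In Ag+Costim it was measured at 131, 207, 157, 82.9 and 58.2 CPM. The first 4 Ag+Costim libraries lay above every Ag library, while replicate 5 lay inside the Ag range. The log2 fold change was 1.25 ± 0.27 (SE, n = 5 and 5, edgeR adjusted p = 0.00132), and between 1.00 and 1.43 with any library left out. The transcript Nfkb2-201, a coding transcript, carried 60.4% to 70.7% of the gene's transcript counts in Ag+Costim and 26.9% to 60.3% in Ag. It was higher by a log2 fold change of 1.999 ± 0.372 (edgeR adjusted p = 0.00304), while Nfkb2-206, which begins farther upstream, differed by 0.09 ± 0.32 (adjusted p = 0.883). The change of share within the gene did not pass its own test (adjusted p = 1).

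Relb, the partner of p52, showed the same kind of spread without a difference in mean. It was measured at 51.5, 66.1, 55.3, 28.2 and 29.0 CPM in Ag+Costim. The Ag libraries held 46.6, 49.4, 50.5, 39.4 and 44.6 CPM. Ag+Costim replicates 1 to 3 lay above all Ag libraries and replicates 4 and 5 lay below all of them, so the mean of 46.0 ± 16.8 CPM (SD, n = 5) against 46.1 ± 4.39 CPM (SD, n = 5) describes no single library. The same replicates 4 and 5 were the lowest pair of their group for 5 members, namely Nfkb1, Nfkb2, Relb, Nfkbia and Bcl3. The share of all genes with this lowest pair was not counted, so it is not shown as a trait of the members. Among known target genes of the pathway, Tnfrsf4 and Cd83 had the same lowest pair, while for Ccl5 replicates 4 and 5 were the highest.

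Rela, the main activating subunit of the canonical route, was the only subunit called lower. It held 154, 181, 169, 140.1 and 207 CPM in Ag and 139.2, 138.5, 136.7, 145 and 136 CPM in Ag+Costim. The Ag+Costim values were close together, with an SD of 3.83 CPM, and overlapped the lowest Ag library. The log2 fold change was -0.29 ± 0.09 (SE, n = 5 and 5, edgeR adjusted p = 0.0193), the smallest among the 6 called members. Rel, which encodes c-Rel, was the least abundant subunit, between 14.9 and 22.1 CPM in Ag and between 12.1 and 20.7 CPM with costimulation. Its log2 fold change of -0.23 ± 0.16 was not called (edgeR adjusted p = 0.248), but it was called lower under upper-quartile scaling (-0.43) and under a correction for transcript length (-0.58).

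Both IkB inhibitors were lower with costimulation. Nfkbia stood at 356, 356, 373, 284 and 351 CPM in Ag and at 345 and 367 CPM in Naive. In Ag+Costim it was measured at 181, 187, 159.6, 139.8 and 87.9 CPM. Every Ag+Costim library lay below every other library, a separation seen in 18.5% of all genes between Ag+Costim and Ag. The log2 fold change was -1.19 ± 0.17 (SE, n = 5 and 5, edgeR adjusted p = 4.46e-05), a 2.28-fold lower level. A single transcript, Nfkbia-201, held 98.7% or more of the counts in each library.

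Nfkbie followed at a smaller size. It held 64.7, 83.3, 68.0, 64.8 and 81.1 CPM in Ag and 47.0, 54.7, 52.1, 53.2 and 33.5 CPM in Ag+Costim. The groups did not overlap, and the log2 fold change was -0.59 ± 0.13 (SE, n = 5 and 5, edgeR adjusted p = 0.00175). At 50.4 and 49.2 CPM, the Naive libraries lay within the Ag+Costim range. The retained-intron transcript Nfkbie-202 made up 38.2% to 69.2% of the gene's transcript counts in Ag and 30.7% to 56.0% in Ag+Costim and was called lower (-0.83 ± 0.22, edgeR adjusted p = 0.0191). Of the protein-coding transcripts, Nfkbie-201 differed by 0.19 ± 0.35 and Nfkbie-203 by -1.03 ± 1.03, neither called (edgeR adjusted p = 0.757 and 0.533).

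The regulators Tnfaip3 and Map3k14 were higher in Ag+Costim than in Ag but highest in Naive cells. Map3k14 held 12.9, 13.8, 14.1, 14.7 and 13.6 CPM in Ag and 20.9, 26.5, 25.7, 29.4 and 22.6 CPM in Ag+Costim. Naive libraries held 82.4 and 94.3 CPM. The 3 groups did not overlap, and the log2 fold change of Ag+Costim against Ag was 0.85 ± 0.10 (SE, n = 5 and 5, edgeR adjusted p = 1.08e-05). Map3k14 had the tightest Ag values of all members, with a coefficient of variation of 4.78%. Map3k14-203, a processed transcript inside the gene, took 10.2% to 17.0% of its transcript counts in Ag libraries, between 3.41% and 6.68% with costimulation and 7.79% to 9.09% in Naive, a share that did not pass the test of transcript use (adjusted p = 0.658). The coding Map3k14-201 was called higher with costimulation, by 1.07 ± 0.11 (edgeR adjusted p = 7.78e-05). The annotated gene 1700028N14Rik overlaps Map3k14 on the same strand.

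Tnfaip3 stood at 20.9, 31.3, 27.2, 22.2 and 30.9 CPM in Ag and at 42.5, 60.7, 51.7, 43.6 and 34.9 CPM in Ag+Costim. Naive libraries held 57.9 and 77.9 CPM. Ag lay below both other groups without overlap, and Ag+Costim overlapped Naive by replicate 2 alone. The log2 fold change of Ag+Costim against Ag was 0.82 ± 0.16 (SE, n = 5 and 5, edgeR adjusted p = 0.000853). With the correction for transcript length it was 0.39 for Tnfaip3 and 0.44 for Map3k14, both still called. Among 18817 genes, 39.8% had no overlap between Ag and Ag+Costim, as did 4 of the 10 members. Tnfaip3 and Map3k14 were the 2 members above, where 21.3% of all genes lay above.

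Bcl3 and Nfkb1, like Rel and Relb, did not pass. Bcl3 held between 35.4 and 63.1 CPM in Ag and between 29.5 and 67.5 CPM with costimulation (log2 fold change -0.11 ± 0.21, edgeR adjusted p = 0.673). Nfkb1 held between 57.5 and 73.0 CPM in Ag and between 49.3 and 98.5 CPM with costimulation (-0.05 ± 0.17, edgeR adjusted p = 0.813), with the Ag+Costim maximum set by replicate 1. On FPKM, which divides by transcript length, Nfkb1 was called lower in Ag+Costim (-0.54, limma adjusted p = 0.0283), and the counts of its transcripts differed between the groups as described further on.

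**Figure D2:**
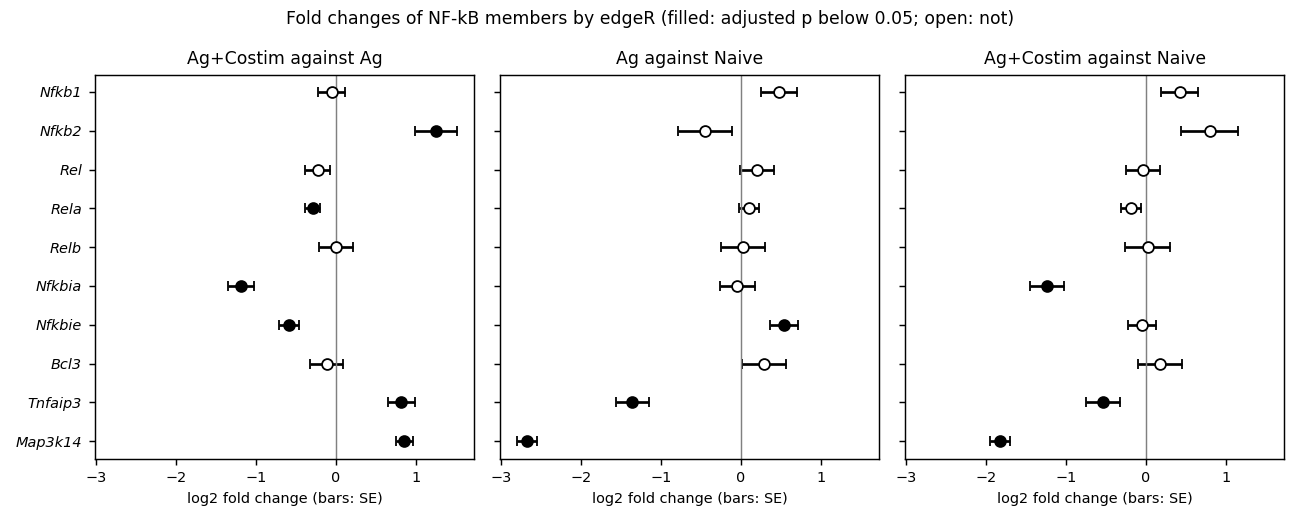
The 3 panels plot the log2 fold change of each member in each comparison on the horizontal axis, with bars of 1 SE and filled points for an edgeR adjusted p below 0.05. Map3k14 lies at 0.85, -2.67 and -1.82 in the 3 panels, while Nfkb1, Rel, Relb and Bcl3 are open in all of them.

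Ag and Naive cells are separated by transfer, host and antigen together. In Ag against Naive, 1 member was called higher (Nfkbie) and 2 lower (Map3k14 and Tnfaip3), 3 of 10 where 46.7% of all genes were called, 24.2% higher and 22.5% lower. The libraries of 5 members did not overlap between these groups, against 56.4% of all genes. Map3k14 was lower by a log2 fold change of -2.67 ± 0.13 (SE, n = 5 and 2, edgeR adjusted p = 1.9e-08), a 6.38-fold lower level and the largest difference of any member in any comparison. Tnfaip3 was lower by -1.36 ± 0.20 (edgeR adjusted p = 0.000119). Nfkbie was higher by 0.54 ± 0.18 (edgeR adjusted p = 0.0229), and this call was lost without either Naive library (adjusted p = 0.108 and 0.14) and on FPKM (0.32, limma adjusted p = 0.203). Nfkb1 was 48.3 and 48.9 CPM in Naive, below every Ag library, and its 0.47 ± 0.23 was not called (edgeR adjusted p = 0.105). It was called on FPKM (0.70), with the length correction (0.90), with a replicate block (0.73) and with these groups fitted alone (0.47). Nfkb2 lay below both Naive libraries in every Ag library, and its -0.45 ± 0.34 was not called (edgeR adjusted p = 0.295). It was called lower with these groups fitted alone (-0.45). Nfkbia, at -0.05 ± 0.22 (edgeR adjusted p = 0.873), had overlapping libraries in these groups.

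In Ag+Costim against Naive, which shares its libraries with the comparisons above, no member was called higher and 3 were called lower, where 52.3% of all genes were called, 26.9% higher and 25.4% lower. The libraries of 4 members did not overlap, against 66.0% of all genes. Nfkb1 lay above (31.7% of all genes did) and Rela, Nfkbia and Map3k14 below (34.2% did). Rela, at -0.19 ± 0.12, was not called (edgeR adjusted p = 0.222), but it was called lower under upper-quartile scaling (-0.34), with these groups fitted alone (-0.19) and on FPKM (-0.40). Nfkbia was lower by -1.24 ± 0.21 (SE, n = 5 and 2, edgeR adjusted p = 0.000242) and Map3k14 by -1.82 ± 0.13 (edgeR adjusted p = 1.02e-07). Tnfaip3, at -0.54 ± 0.21 (edgeR adjusted p = 0.044), lost its call in 5 of the 12 fits that leave out 1 library, with no filter on low counts and with a replicate block, and stood at -0.32 without Naive replicate 2. Nfkb2 was higher by 0.79 ± 0.36 and not called (edgeR adjusted p = 0.08); it was called without Ag+Costim replicate 4 or 5 (0.93 and 0.98) and by DESeq2 (0.78). By unadjusted p, Nfkb2 was the only member with a higher level and a p below 0.05 (0.0458). The order of group means was therefore Naive, Ag+Costim, Ag for Map3k14 and Tnfaip3, and Ag+Costim, Naive, Ag for Nfkb2. For Nfkbia, Naive and Ag overlapped and Ag+Costim lay under both.

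Levels per length, in FPKM as the sum over a gene's transcripts, placed the inhibitor above its targets in every group. Nfkbia ranked first among the 10 members, at 250.3 ± 11.8 FPKM (SD, n = 2) in Naive, 214 ± 15.0 (SD, n = 5) in Ag and 91.8 ± 24.1 (SD, n = 5) in Ag+Costim. Rela ranked second, at 65.3, 61.8 and 49.3 FPKM in the same groups. In Ag the next 5 were Nfkbie, Bcl3, Nfkb1, Relb and Nfkb2, whose means ran from 26.4 down to 16.3 FPKM and whose libraries overlapped between neighbours. Nfkb2, at rank 7 in Ag, was at rank 3 both in Ag+Costim, with 17.3 to 64.7 FPKM, and in Naive, with a mean of 25.1 FPKM. Tnfaip3, Map3k14 and Rel closed the order in Ag at 5.93, 3.45 and 2.39 FPKM, while in Naive Map3k14 ranked 4 at 24.0 FPKM.

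Ratios within a library do not depend on scaling between libraries. The log2 ratio of Nfkb2 to Nfkb1 counts was -0.58, -0.29, -0.09, -0.32 and -0.36 in Ag and 0.41, 1.58, 1.48, 0.75 and 0.17 in Ag+Costim. In Naive it was 0.43 and 0.74. Counts of Nfkb1 thus exceeded those of Nfkb2 in all 5 Ag libraries and in none of the other 7. The log2 ratio of Nfkbia to Nfkb1 lay between 1.97 and 2.70 in Ag, between 0.77 and 1.51 with costimulation and 2.84 and 2.91 in Naive, so the 3 groups occupied separate ranges. The ratio of Relb to Rela ran from -2.37 to -1.07 in Ag+Costim and enclosed the Ag range of -2.21 to -1.72. The ratio of Rel to Rela overlapped in all groups.

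**Figure D3:**
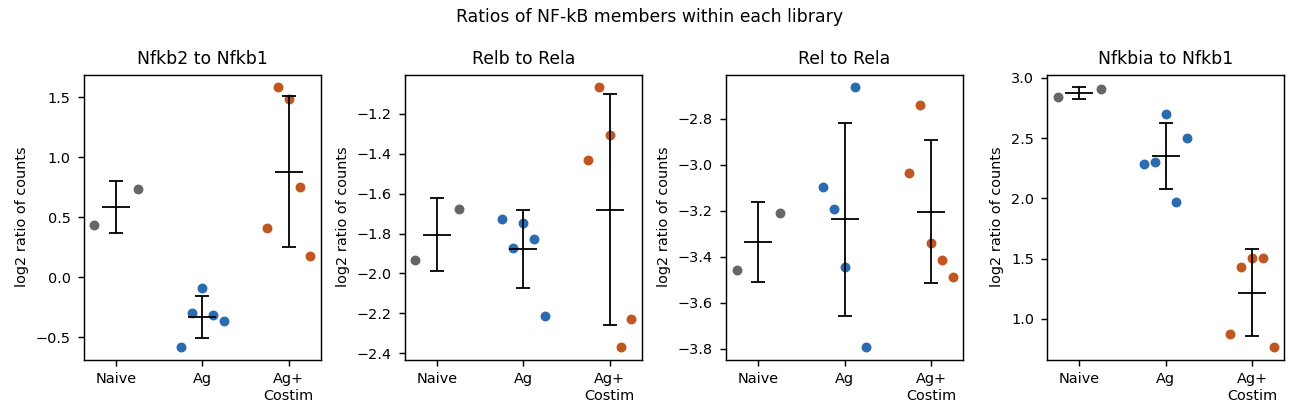
The 4 panels plot the log2 ratio of counts of a pair of members in each library, with a bar at the group mean and error bars of 1 SD. Nfkb2 to Nfkb1 is below 0 in each Ag library and above 0 in each other library, and Nfkbia to Nfkb1 falls in separate ranges for the 3 groups.

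The transcripts of Nfkb1 differed more than its gene count. Nfkb1-201 is the 25-exon, 4117-base transcript that encodes full-length p105, and it spans the whole gene on chromosome 3 (GENCODE vM21, minus strand, 135584655 to 135691546). It took 0%, 0%, 0%, 30.0% and 2.02% of the gene's transcript counts in Ag and 83.7%, 83.3%, 70.4%, 70.3% and 85.1% in Ag+Costim. The Naive libraries stood at 65.4% and 67.7%. The groups did not overlap, and Ag replicate 4 held 550 counts and replicate 5 held 52, against 0 in the other Ag libraries. Ag counts were assigned to shorter transcripts instead. Nfkb1-202, a retained-intron transcript of the 3′ part of the gene, took between 28.5% and 52.7% in Ag libraries, between 0.511% and 19.9% with costimulation and 3.45% and 5.75% in Naive. Nfkb1-203, a coding transcript that starts inside the gene, took 24.3% to 33.1% in Ag apart from replicate 4, where it was 0%, and 1.18% to 3.78% in Ag+Costim. Nfkb1-204, a retained-intron transcript of the 5′ part, took between 7.92% and 20.2% in Ag libraries, between 2.79% and 8.03% with costimulation and 17.5% in both Naive libraries. Nfkb1-206, a coding transcript of 23 exons that ends at the proximal 3′ position 135585278, took 16.2%, 26.6%, 10.8%, 8.72% and 0% in Ag, at most 6.17% with costimulation and 1.62% and 1.03% in Naive.

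**Figure D4:**
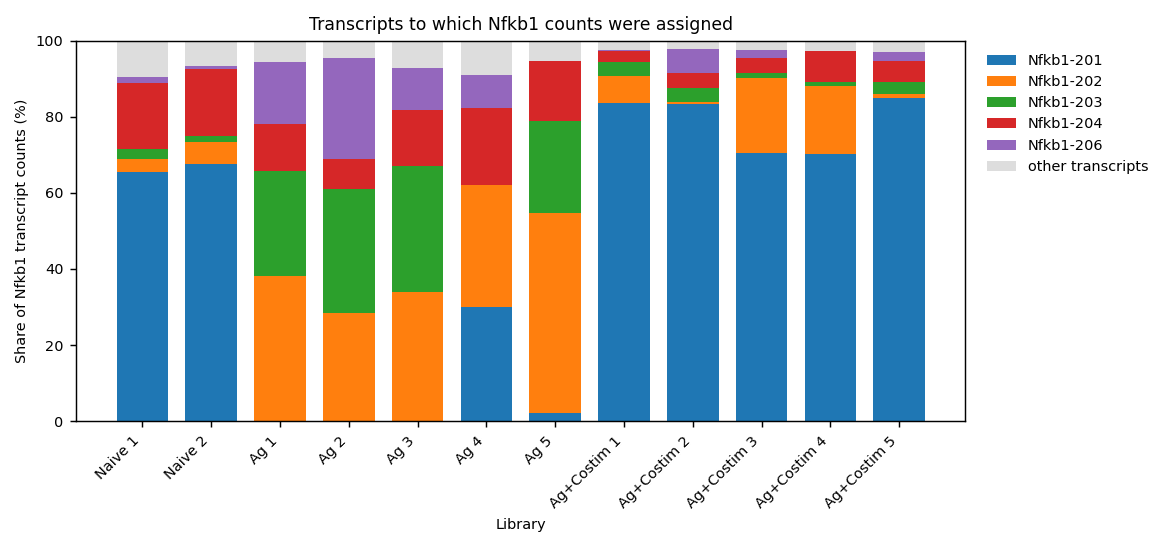
Stacked bars give, for each of the 12 libraries, the share of Nfkb1 transcript counts assigned to each transcript that holds 10% or more in the mean of any group, with the rest in grey. Nfkb1-201 fills 65.4% or more of each Naive and Ag+Costim bar and is absent from 3 of the 5 Ag bars.

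Nfkb1-201 was higher relative to its gene in Ag+Costim than in Ag by a log2 difference of 3.63 (edgeR diffSpliceDGE, adjusted p = 0.0149 over 41844 transcripts), and the gene passed the combined test of transcript use (adjusted p = 0.0248). In that test 8.72% of 9745 genes were called, against 2 of the 9 members with several transcripts. The call for Nfkb1 was lost in 8 of the 12 fits that leave out 1 library, namely without replicate 1, 2, 3 or 5 of either Ag or Ag+Costim, and kept without replicate 4 of either. As a transcript level, Nfkb1-201 was not called (3.65 ± 1.72, edgeR adjusted p = 0.16) until Ag replicate 4 was left out (7.42, adjusted p = 0.00875), and Nfkb1-204 was called lower (-1.63 ± 0.25, edgeR adjusted p = 0.000983). The counts are StringTie's division of short reads among overlapping transcripts, and coverage along the gene was not analysed here. The annotated gene Gm43430 overlaps Nfkb1 on the same strand.

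Over the 36 member transcripts tested, costimulation against Ag alone gave 2 higher and 5 lower calls, where 21.2% of 50792 transcripts were called. In Ag against Naive 3 were called, all lower, where 16.2% of transcripts were called. Against Naive, Ag+Costim had 1 transcript called higher (Nfkb2-201) and 8 lower, where 21.8% were called.

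Relb was the other member called for transcript use, and its call rests on sparse counts. Relb-206 held 214 counts in Ag+Costim replicate 3, 259 counts in Naive replicate 2 and 0 in the other 10 libraries. Without Ag+Costim replicate 3 neither Relb nor Nfkb1 was called. The main coding transcripts of Relb, Relb-201 and Relb-202, overlapped between the groups.

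The exon values of the authors, with 1 value of percent spliced in (Psi, as a fraction) per group and no error, cover 115 nodes of members. The largest difference was at the 3′ end of Nfkb1. The distal tandem end, chr3:135584655-135585277, had Psi 0.844 in Ag and 0.670 in Ag+Costim, and the proximal segment, chr3:135585278-135585515, had 0.156 and 0.330. The share of Nfkb1-206, which ends at this proximal position, ran the opposite way, with a mean of 12.5% in Ag and 2.14% in Ag+Costim. Why the 2 deposited measures differ in direction was not tested. No other node of a member differed by more than 0.1. Core exons with higher Psi in Ag+Costim numbered 22 of 23 for Nfkb1, 20 of 21 for Nfkb2, 14 of 14 for Map3k14 and 7 of 7 for Tnfaip3. They numbered 7 of 9 for Rela, 7 of 10 for Relb and 5 of 7 for Bcl3. Over all 89034 core exons, 71.9% were higher. Other members went the other way, with 0 of 4 core exons higher for Nfkbia, 1 of 4 for Nfkbie and 3 of 8 for Rel. The lowest core exon of Nfkb1 had Psi 0.859 in Ag, and the lowest in Ag+Costim was 0.913. For Map3k14 the Ag range was 0.900 to 0.943 and the Ag+Costim range was 0.951 to 0.978, with no overlap among its exons. For Tnfaip3 the ranges were 0.949 to 0.971 in Ag and 0.980 to 0.986 in Ag+Costim, also without overlap. Exons of a gene share reads and are no replicates.

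Upstream, the 36 signalling genes of 5 lists were split between higher, lower and uncalled. Relative to Ag, 12 passed upward, 13 passed downward and 11 were not called, where 53.1% of all genes were called (26.6% higher, 26.5% lower), with a median log2 fold change of -0.06 beside -0.05 over all genes. Of the other IkB proteins, Nfkbid, the nuclear IkB-NS, was lower (29.7 ± 5.84 against 47.9 ± 5.49 CPM, SD, log2 fold change -0.69, edgeR adjusted p = 0.000523). Nfkbib, which encodes IkB-beta, stood at -0.06 ± 0.11 and Nfkbiz, which encodes IkB-zeta, at -0.10 ± 0.13, both not called. Of this list with Nfkbia and Nfkbie added, Nfkbia, Nfkbie and Nfkbid were called lower and none was called higher. The precursor genes Nfkb1 and Nfkb2 and the atypical Bcl3 are not counted here, and of them Nfkb2 was called higher.

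Of the 8 receptor adaptors and enzymes that set the stability of NIK, 3 were called higher and 4 lower, beside the 26.6% and 26.5% of all genes. Traf1 and Traf5, adaptors of tumour necrosis factor receptors, were lower by -0.97 ± 0.10 and -1.05 ± 0.12, with no overlap between groups. Traf6 was higher by 0.92 ± 0.11, Traf3, the adaptor that brings NIK to its degradation, by 0.58 ± 0.17, and Otud7b, the enzyme that removes ubiquitin from TRAF3, by 0.77 ± 0.11. The ligases Birc2 and Birc3, which act with TRAF2 and TRAF3 on NIK, were lower by -0.22 ± 0.08 and -0.48 ± 0.14. Traf2 stood at 0.05 ± 0.08 and was not called (edgeR adjusted p = 0.629). Against Naive, Traf1 and Traf5 were higher in Ag by 1.09 ± 0.14 and 1.012 ± 0.168, and Ag+Costim differed from Naive by 0.12 ± 0.13 and -0.04 ± 0.16. Traf6 was lower in Ag than in Naive by -1.12 ± 0.14.

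Of the genes between the T cell receptor and the IKK kinases, the kinase gene Pdpk1 rose by 0.99 ± 0.10 (edgeR adjusted p = 3.28e-06), Malt1 was higher by 0.64 and Bcl10 lower by -0.35. Pdpk1 and Malt1 were both lower in Ag than in Naive, by -0.96 and -1.24. Among 9 kinase genes, 3 were called higher and 3 lower (all genes 26.6% and 26.5%). Tab3 rose from a low level by 1.37 ± 0.22 and Tab1 by 0.69 ± 0.13. Ikbkb, which encodes the kinase of IkB-alpha in the canonical route, was lower by -0.43 ± 0.11, and Ikbke by -0.63 ± 0.14. Chuk, which encodes the IKK-alpha kinase of both routes, stood at 0.14 ± 0.09 and was not called (edgeR adjusted p = 0.194).

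Of the 10 ubiquitin writers and erasers, 3 were called higher and 4 lower, where 26.6% and 26.5% of all genes were. Otulin, which removes linear ubiquitin chains, was measured at 161 ± 16.6 CPM in Ag, 57.6 ± 17.3 CPM in Ag+Costim and 32.0 ± 1.47 CPM in Naive (SD). Its log2 fold change of -1.49 ± 0.18 in Ag+Costim against Ag was the largest among the signalling genes (edgeR adjusted p = 1.03e-05). Sharpin and Rnf31, 2 subunits of the enzyme that makes those chains, went opposite ways, at -0.76 ± 0.09 and 0.61 ± 0.14. Rnf11, a partner of A20, was lower by -1.12 ± 0.16, while the A20 partners Tnip1 and Itch were higher by 0.64 ± 0.10 and 0.69 ± 0.15.

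**Figure D5:**
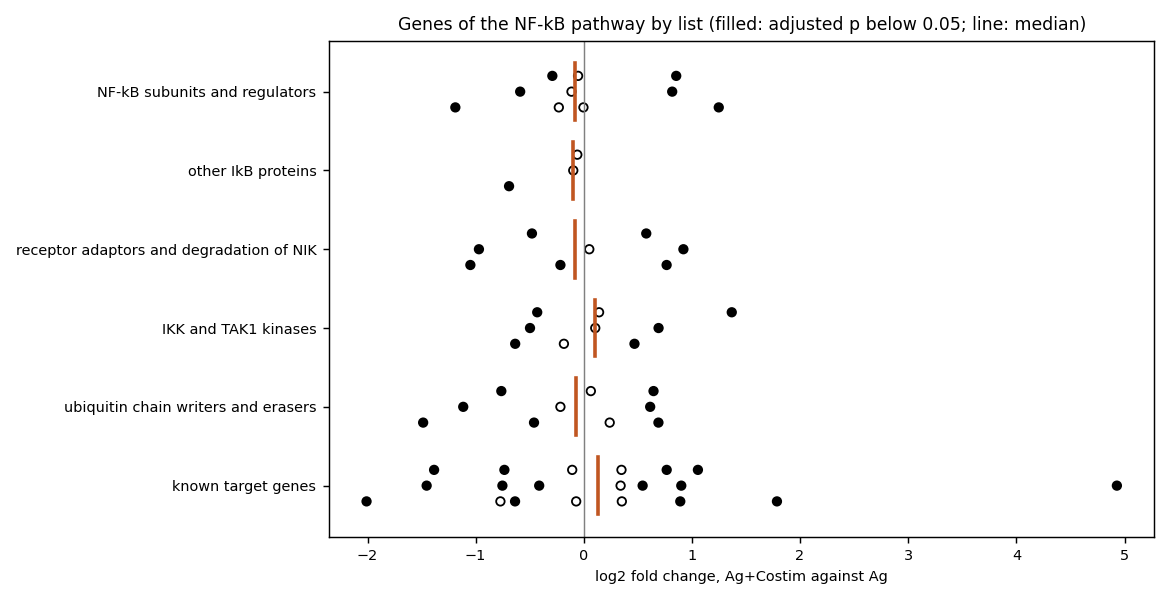
Each point is a gene of 1 of the lists shown, with the members on top, placed by its log2 fold change in Ag+Costim against Ag on the horizontal axis, filled for an edgeR adjusted p below 0.05, with a line at the list's median. Points are staggered vertically for legibility only. The lists shown have points on both sides of 0 except the other IkB proteins, and Il2ra at 4.93 is the point farthest to the right.

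Known target genes were split as well. With costimulation 7 of the 20 passed the test upward and 7 downward, beside 26.6% and 26.5% of all genes. Il2ra, the high-affinity chain of the interleukin-2 receptor, rose from 2.38 ± 1.77 to 69.9 ± 33.5 CPM (SD, n = 5 and 5, log2 fold change 4.93, edgeR adjusted p = 1.67e-06), and Irf4 rose by 1.79 ± 0.25. Cd40lg and Ccnd2 were lower by -2.01 ± 0.30 and -1.45 ± 0.11. Tnfrsf4 and Tnfrsf9, which encode the OX40 and 4-1BB receptors targeted by the antibodies, were at 9.59 ± 7.74 against 7.53 ± 2.95 CPM and 119.7 ± 48.0 against 94.5 ± 16.02 CPM, and neither was called. Both were higher in Ag than in Naive, by 2.42 ± 0.84 and 4.10 ± 0.42. Within Ag+Costim, Tnfrsf4 held 12.1, 20.7 and 10.7 CPM in replicates 1 to 3. Its 1.47 and 3.04 CPM in replicates 4 and 5 lay below every Ag library (4.88 to 11.3 CPM). In Ag against Naive, 9 targets were called higher and 4 lower (24.2% and 22.5% of all genes), led by Bcl2a1d (4.41 ± 0.23), Tnfrsf9, Cd83 (3.97 ± 0.65) and Bcl2a1b (3.90 ± 0.21). The Bcl2a1 genes are near-identical copies among which reads may be split. In Ag+Costim against Naive, 10 were called higher and 6 lower (26.9% and 25.4% of all genes).

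Over the 12 libraries, the genes whose log2 CPM followed the called members most closely were compared by Pearson correlation among 9252 genes with a mean log2 CPM above 3. For Map3k14 they were Zfp263, Galnt10 and Ndor1 (r = 0.98 each), and for Nfkbia 2810002D19Rik, Coq8a and Smyd3 (0.98, 0.97 and 0.96). For Tnfaip3, Foxj2 reached 0.97 and Hgh1 0.96. Nfkb2 was followed less closely, with Tars2 at 0.94 and Gpc1 and Ivns1abp at 0.91. Rela and Nfkbie were followed best by Herpud1 (0.94) and Tbc1d4 (0.95). The libraries fall into 3 groups, so these values describe shared group levels, and the genes were picked as the closest of many.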

How the data were processed

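RNA-seq of 12 libraries (5 Ag, 5 Ag+Costim, 2 Naive) was analysed. Groups were taken from the sample titles. Per the labels and methods, the authors aligned single-end 100-base reads to mm10 with HISAT2 2.1.0, SAMtools 1.9 and StringTie 2.1.0. The deposited count values per gene and transcript come from StringTie coverage and are raw. Deposited FPKM were given by the authors for each transcript and were summed per gene here. The Psi fraction was computed by the authors with Whippet, 1 value per group, and how replicates were combined is not stated. Deposited columns with their differences and probabilities were not used. The percent columns and the input amount of the deposited core sheet are undefined there. The strand setting of the counting is not given in the sources used here, so antisense partners of Nfkb2 and Bcl3 cannot be separated. Entries without a gene identifier, 0.0508% to 0.121% of counts, were left out. The gene identifiers match GENCODE vM21.

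The members and gene lists were chosen with earlier results of these data known. Gene counts were fitted with edgeR 4.0.16 in R 4.3.3 over all 12 libraries (TMM scaling, filterByExpr, robust two-sided quasi-likelihood test). P-values were adjusted over all genes by Benjamini and Hochberg's method with a threshold of 0.05. CPM use TMM library sizes. Transcript counts were fitted likewise, and transcript use with diffSpliceDGE. FPKM were tested as log2(FPKM + 1) with limma 3.58.1, where fold changes of low genes are understated. The length correction subtracts a smooth curve of each library's deviation on transcript length. Alternatives were upper-quartile and DESeq2 size factors, DESeq2 1.42.0, no filter, 2 groups alone, the replicate number as a block, the pseudocount 0.1, a mean FPKM of 1 or more, and each library left out. Named list genes are, per list and comparison, the up to 4 called genes with the largest change and no overlap. All genes of the other IkB and adaptor lists are named too. A gene named for 1 comparison may overlap in another where its value is given. Malt1, Itch and Ikbkb overlapped between Ag and Ag+Costim. Chuk and Tnfrsf4 were named after their values were seen. Results for 2 genes are not reported here. Procedures were tested on simulated data. Floors cover counting error only.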

Additional observations from a re-analysis of the deposited data

Results flagged for a closer look

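In 8 of 62 groups of 5 libraries checked, a library stood apart from the other 4 by Dixon's criterion (gap over range above 0.71), where chance gives about 1 in 20. Nfkbia was 284 CPM in Ag replicate 4, under the other Ag libraries. The share of Nfkb1-201 was 30.0% and that of Nfkb1-203 was 0.0% in Ag replicate 4, the library with the fewest counts. In Ag replicate 1, Tnfaip3-201 held 49.9%, Tnfaip3-202 held 42.2% and Tnfaip3-205 held 7.47% of the gene's transcript counts, and these shares are not independent of each other. Tnfaip3-205 held 12.1% in Ag+Costim replicate 1. Nfkbia-201 held 98.7% in Ag+Costim replicate 5, under the other libraries of its group.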

How the results depend on the processing

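The 6 calls of Ag+Costim against Ag kept their direction and their side of the threshold in every alternative run. Members called lower there went from 3 to 5 with the length correction, which added Nfkb1 (-0.45) and Rel (-0.58). Members called higher in Ag against Naive went from 1 to 2 with the replicate block, 3 with the length correction and 2 with 2 groups alone, and ran from 0 to 2 with a library left out. Members called higher in Ag+Costim against Naive went from 0 to 2 with the replicate block and 1 with DESeq2, and ran from 0 to 1 with a library left out. The causes were not tested. Same-numbered libraries of Ag and Ag+Costim had correlations of their deviations of 0.016 to 0.095. Ag replicates 1, 2 and 3 correlated best with the same number in Ag+Costim, and replicates 4 and 5 with numbers 5 and 4. These low values do not settle whether the numbers pair the samples, so fits without and with a replicate block are given. With the block, Tnfaip3 in Ag+Costim against Naive was -0.49 and no longer called (adjusted p = 0.054). With the replicate block, the members with a change in transcript use went from 2 to 1 in Ag+Costim against Ag and from 1 to 2 in Ag against Naive. Leaving out a library gave 0 to 3 and 0 to 2 of them. It gave 0 to 2 transcripts called higher and 1 to 4 called lower in Ag against Naive, and 0 to 1 higher and 2 to 8 lower in Ag+Costim against Naive. With no filter, 0 transcripts were called higher in the last comparison.

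Values near 0 changed sign, none of them called. In Ag+Costim against Ag, Relb was 0.0011 with no filter and 0.0507 with the length correction, and Bcl3 was 0.0599 with the latter. With a library left out, Nfkb1 ran from -0.25 to 0.0498, Relb from -0.17 to 0.15 and Bcl3 from -0.31 to 0.0048. In Ag against Naive on FPKM, Rela was -0.0877 with the pseudocount 1 or a mean of 1 or more and -0.0891 with 0.1, and Relb -0.10 in each, and Nfkbia was 0.14 with the replicate block. With a library left out, Relb ran from -0.0909 to 0.14 and Nfkbia from -0.0944 to 0.0109. In Ag+Costim against Naive, Rel was 0.14 with the replicate block and 0.27 with the length correction. Relb was -0.14 with upper-quartile scaling and -0.23 or -0.24 on FPKM, and Bcl3 was -0.0695 or -0.0740 on FPKM. With a library left out, Rel ran from -0.16 to 0.0731, Relb from -0.15 to 0.16, Nfkbie from -0.10 to 0.0566 and Bcl3 from -0.0222 to 0.29.

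With 2 Naive libraries, differences from Naive rest on the spread of the other groups. Transcript shares rest on an estimate from short reads, and Psi has no error.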
